A study of Danio rerio with 6 samples.

Results

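The genes sox3, sox2, sox19a and sox19b, which encode the SoxB1 transcription factors of the early embryo, were followed together with pou5f3 and nanog in zebrafish embryos injected with a morpholino against mondoa. These 6 genes were taken by identifier from the 32054 genes of the count table, and all 6 were present in it. Messenger RNA libraries had been made from 3 samples of whole embryos injected with mondoa-mo, a translation-blocking morpholino, and from 3 samples injected with mondoa-mis, a control morpholino that carries mismatches to the target. By the study's general protocol, injection was into the yolk at the 1-cell stage, and all samples are labelled as 4 hpf (hours post fertilization), when the control embryos had reached sphere stage. The groups were matched by age, and the stage of the mondoa-mo embryos is not given. A difference in stage therefore cannot be told apart from other effects of the morpholino. The embryos came from wild-type fish of AB or golden descent. Which of these was injected, and whether the samples of a group came from separate clutches, is not given in the sources used here. The study calls the samples biological replicates, each of pooled embryos. The p-values measure the spread between these samples, which need not be that between clutches. A translation-blocking morpholino need not lower the mRNA that it binds, so that the count of the targeted gene mlxip (mondoa), 267 to 278 CPM in mondoa-mis against 298 to 349 CPM for mondoa-mo, does not check the knockdown.

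A zebrafish embryo starts development on mRNAs laid down in the egg and switches on its own genome at the blastula stage. Pou5f3 (a POU domain factor related to mammalian Oct4), the maternal SoxB1 factor Sox19b and the homeodomain factor Nanog are translated from maternal mRNA, open chromatin and activate many of the earliest zygotic genes. The other SoxB1 genes sox3, sox19a and sox2 are themselves transcribed from the zygotic genome, and their products later take part in neural development. The comparison of mondoa-mo with mondoa-mis asks which transcript levels differ when MondoA function is lowered before epiboly, here those of the activators and of the genes they act on.

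Across all genes, total counts lay between 20685326 and 32100726 per library. After removal of low-count genes, 15511 were tested, of which 5017 (32.3%) changed between the groups at an adjusted p-value under 0.05 by the quasi-likelihood test of edgeR, Benjamini-Hochberg adjusted, with 16.9% higher and 15.4% lower in mondoa-mo. Leaving out mondoa-mis replicate 1, 2 or 3 lowered this number to 3275, 3119 or 3173. With library size alone in place of TMM, the balance turned, with 2137 genes higher and 2870 lower against 2621 and 2396. The mondoa-mo libraries differed more from each other than the mondoa-mis libraries (biological coefficient of variation 0.11 against 0.0189). The unit of level is CPM, a count relative to its TMM-normalized library total, and levels are compared between genes only as CPM per kilobase of the gene length in the table. The median log2 fold change of all tested genes was 0.0027.

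Of the 6 activator genes, sox3 and sox19a rose in the morphants, by 2.32-fold and 1.5-fold. The transcript of nanog was 1.12-fold higher, a call that was lost when any of 5 libraries was left out. The levels of sox19b and pou5f3 did not pass the test, and sox2 was too low to be tested. In these whole-embryo libraries, a lower or higher share of expressing cells and less or more RNA per cell cannot be told apart.

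**Figure D1:**
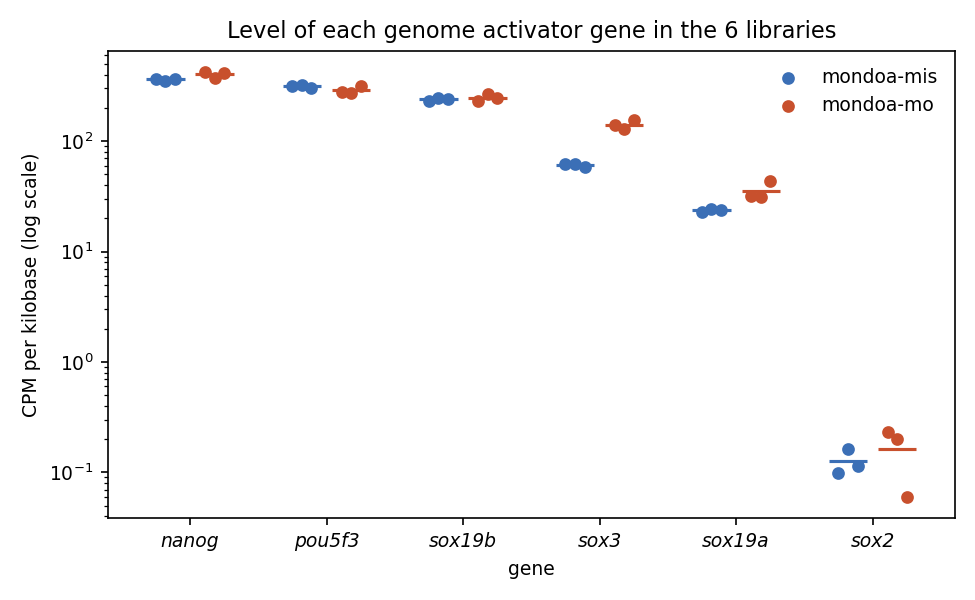
Level of each gene as CPM per kilobase on a log axis, with 1 point per library, mondoa-mis in blue and mondoa-mo in orange, and a line at the group mean. The points of sox3 rise from 58.5 to 62.1 in mondoa-mis to 128 to 156 in mondoa-mo, while those of sox19b and pou5f3 overlap between the groups and sox2 lies far below the other genes.

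Ordered by CPM per kilobase, nanog was the highest in mondoa-mis, at 362 ± 8.98 (SD, n = 3 libraries), followed by pou5f3 at 315 ± 9.9 and sox19b at 240 ± 7.08. These 3 maternally supplied mRNAs ranked among the highest of the 32054 genes of the table, with nanog at 53 to 67, pou5f3 at 72 to 102 and sox19b at 101 to 154 over the 6 libraries. The level of sox3 was 60.8 ± 1.98 CPM per kilobase in mondoa-mis, that of sox19a 23.6 ± 0.902 and that of sox2 0.126 ± 0.0342. No library of a gene overlapped a library of its neighbour in this order within mondoa-mis. The order in mondoa-mo was the same and again had no overlap, but there the lowest pou5f3 library, at 274, lay close above the highest sox19b library, at 267. In mondoa-mo, nanog stood at 406 ± 25.7, pou5f3 at 290 ± 23.5, sox19b at 248 ± 17.3, sox3 at 141 ± 14.2 and sox19a at 35.6 ± 7.11 CPM per kilobase.

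The level of sox3 (ENSDARG00000053569, chromosome 14), a zygotically expressed SoxB1 gene, was 109, 109 and 103 CPM in mondoa-mis replicates 1, 2 and 3. It was 245, 226 and 275 CPM in mondoa-mo replicates 1, 2 and 3. The groups did not overlap, and the lowest mondoa-mo library lay at more than 2 times the highest mondoa-mis library. In the morphants sox3 had a log2 fold change of 1.22 (SE, standard error, 0.0696, edgeR quasi-likelihood adjusted p = 2.2e-06). By p-value sox3 ranked 39 among the 15511 genes tested, and 132 genes called higher had a log2 fold change as large or larger, sox3 included. Every alternative kept the call, with log2 fold changes between 1.14 and 1.27.

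In the RefSeq table of assembly GRCz12tu, the sox3 gene overlaps the long noncoding RNA gene si:ch211-143l19.3 (ENSDARG00000099054). The count of this lncRNA gene exceeded that of sox3 by 4 to 15 read pairs in each of the 6 libraries, for example 2684 against 2677 in mondoa-mis replicate 1 and 7662 against 7658 in mondoa-mo replicate 1. Its log2 fold change of 1.21 (SE 0.0697) therefore repeats that of sox3. The lncRNA gene has a length of 4412 bases in the count table against 1763 for sox3, yet it held only these few pairs beyond the sox3 count. Few pairs of the lncRNA gene were thus counted outside what was also counted for sox3. Without the strand, the shared pairs cannot be assigned to a transcript from these counts. In the study, sox3 was among randomly chosen genes also measured by RT-qPCR, which the authors report as bearing out their sequencing.

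The level of sox19a (ENSDARG00000010770, chromosome 5), another zygotic SoxB1 gene, was 49.2, 53.1 and 51.6 CPM in mondoa-mis replicates 1, 2 and 3. It was 68.9, 67.7 and 95 CPM in mondoa-mo replicates 1, 2 and 3. All mondoa-mo libraries lay above all mondoa-mis libraries, with mondoa-mo replicate 3 apart from the other two. The log2 fold change was 0.59 (SE 0.116, edgeR quasi-likelihood adjusted p = 0.0034), and it was 0.41 without mondoa-mo replicate 3, where the call held (edgeR quasi-likelihood adjusted p = 0.00033). Among 7060 tested genes whose mean count was 500 or more, 96.8% had a smaller SD of log2 CPM over the mondoa-mo libraries than sox19a, whose SD was 0.275. The median SD of these genes was 0.0936.

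The level of sox2 (ENSDARG00000070913, chromosome 22), a SoxB1 gene known for its later role in neural progenitors, rested on few read pairs. Its counts were 5, 8 and 5 in the mondoa-mis libraries and 15, 9 and 3 in the mondoa-mo libraries. The groups overlapped, and the gene did not pass the filter on low counts. With every gene of 1 count or more in the test, its log2 fold change was 0.41 (SE 0.506, edgeR quasi-likelihood adjusted p = 0.61), so that a difference was not detectable at this depth. The overlapping lncRNA gene sox2ot had 0 to 4 more read pairs than sox2 in each library, and these genes also cannot be told apart.

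The level of sox19b (ENSDARG00000040266, chromosome 7), the maternal SoxB1 gene, was 593, 626 and 621 CPM in mondoa-mis replicates 1, 2 and 3. It was 594, 682 and 630 CPM in mondoa-mo replicates 1, 2 and 3. The ranges overlapped, with mondoa-mo replicate 2 the highest of the 6 libraries. A log2 fold change of 0.051 (SE 0.0539, edgeR quasi-likelihood adjusted p = 0.51) had an interval of 1.96 standard errors from -0.055 to 0.16, and it was -0.013 without mondoa-mo replicate 2.

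The level of pou5f3 (ENSDARG00000044774, chromosome 21) was 778, 801 and 753 CPM in mondoa-mis replicates 1, 2 and 3. It was 687, 678 and 783 CPM in mondoa-mo replicates 1, 2 and 3. Replicates 1 and 2 of mondoa-mo lay below every mondoa-mis library, while replicate 3 lay within their range. The log2 fold change of -0.12 (SE 0.0579) missed the threshold (edgeR quasi-likelihood adjusted p = 0.14), with an interval of 1.96 standard errors from -0.23 to -0.0057. This interval lies wholly on the lower side, although the same quasi-likelihood test gave an unadjusted p of 0.066. Intervals of this kind use a normal multiplier, are narrower than the test allows and do not stand in for it. Without mondoa-mo replicate 3 the log2 fold change was -0.19 and passed (edgeR quasi-likelihood adjusted p = 0.0048), and over all alternatives the adjusted p-value lay between 0.0048 and 0.37.

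The level of nanog (ENSDARG00000075113, chromosome 24), whose product is required for the yolk syncytial layer and endoderm, was 1090, 1040 and 1080 CPM in mondoa-mis replicates 1, 2 and 3. It was 1250, 1110 and 1230 CPM in mondoa-mo replicates 1, 2 and 3. The groups did not overlap, although mondoa-mo replicate 2 lay close above mondoa-mis replicate 1. For nanog this gave a log2 fold change of 0.16 (SE 0.051, edgeR quasi-likelihood adjusted p = 0.033). It did not pass with library size alone (adjusted p = 0.069) or upper quartile normalization (adjusted p = 0.053), nor when mondoa-mis replicates 1, 2 or 3 (adjusted p = 0.085, 0.15 and 0.1) or mondoa-mo replicates 1 or 3 (adjusted p = 0.062 and 0.053) were left out.

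**Figure D2:**
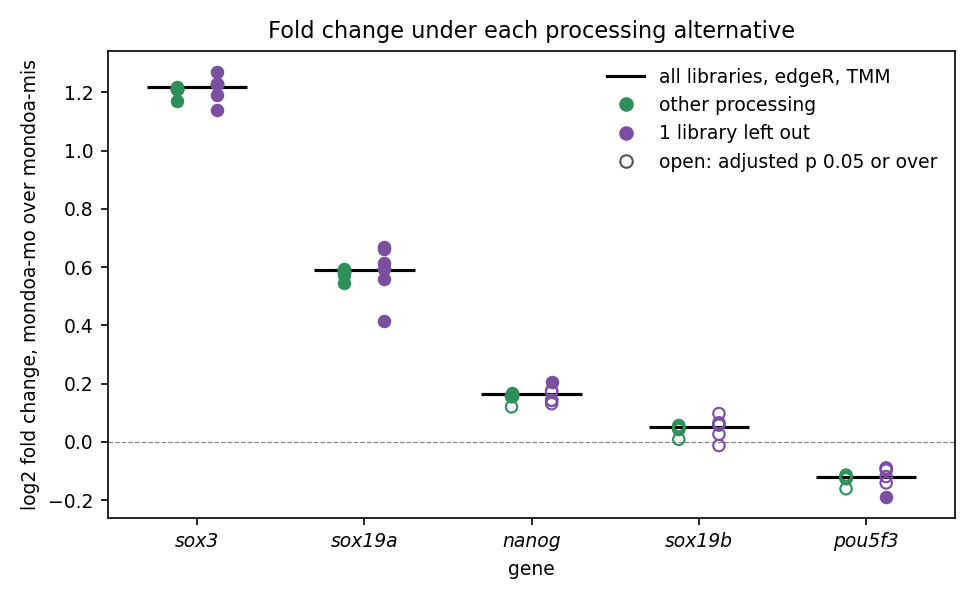
Log2 fold change of the 5 tested genes (y axis) under each alternative, with other normalizations, filters and tests in green, fits without 1 library in purple, and a black line at the value from all libraries. Open circles did not reach an adjusted p-value under 0.05. All points of sox3 and sox19a are filled, those of nanog are mixed, none of sox19b is filled, and a single fit of pou5f3, at -0.19, is filled.

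Of the 5 activator genes tested, 3 were called higher and none lower, beside 16.9% and 15.4% of all tested genes called in these directions. In CPM, the groups did not overlap for sox3, sox19a and nanog, while 47.8% of all genes tested had groups that did not overlap. An exact permutation test of 3 libraries against 3 cannot give a 2-sided p under 0.1 for a single gene. Since the background of called genes is high, the size of the changes separates these genes more than their calls do: 1.57% of the tested genes were called higher and 2.35% lower at least 2-fold, and of the activators sox3 was the only one among the former, with none among the latter.

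**Figure D3:**
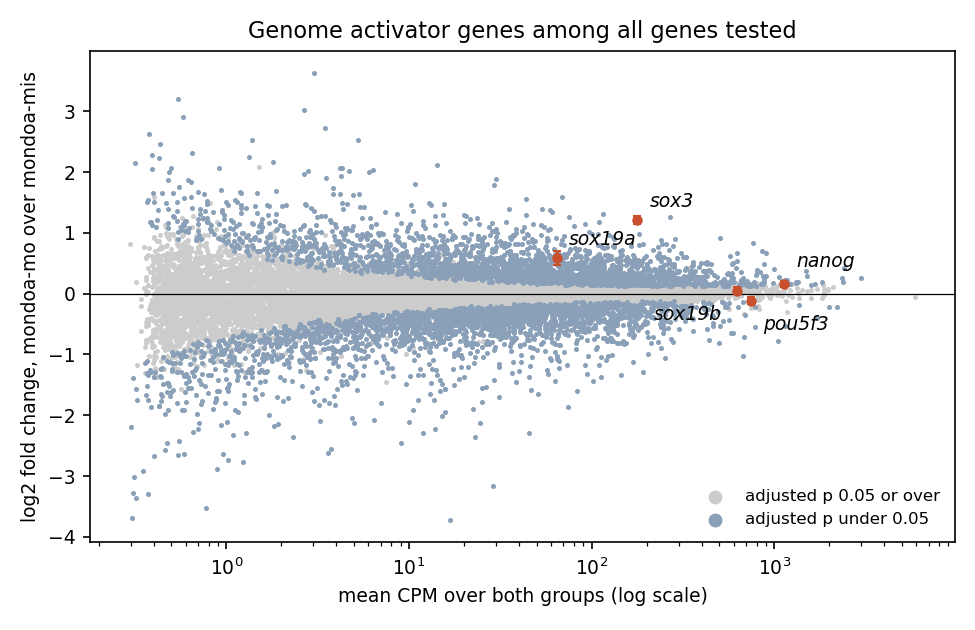
Log2 fold change (y axis) against mean CPM on a log axis (x axis) for all 15511 genes tested, grey where the adjusted p-value was 0.05 or over and blue where it was under 0.05. The 5 tested activator genes are orange with bars of 1 standard error. The point of sox3, at 1.22, stands above most genes of its level, sox19a at 0.59 lies at the upper side, and sox19b, pou5f3 and nanog lie between -0.12 and 0.16.

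The make-up of the SoxB1 transcripts was then followed within each library, where no normalization between libraries enters. Here the SoxB1 sum covers sox3, sox2, sox19a and sox19b, and leaves out the low-count SOX1 copy and sox1b. After division of the counts by gene length, sox19b supplied 73.2%, 73.9% and 74.7% of the summed SoxB1 counts in the mondoa-mis libraries and 57.6%, 62.6% and 55.1% in mondoa-mo replicates 1, 2 and 3. The share of sox3 was 19.6%, 18.7% and 18% in mondoa-mis and 34.5%, 30.1% and 35% in mondoa-mo. The paralog sox19b thus still supplied the larger part in every library. In each mondoa-mo library, sox3 took a larger share than in any mondoa-mis library. These counts do not separate maternal from newly transcribed mRNA of the same gene. The share of sox19a was 7.29 ± 0.113% in mondoa-mis and 8.34 ± 1.31% in mondoa-mo (mean and SD of 3 libraries), and its ranges overlapped. That of sox2 was at most 0.0575% in any library. The sum of the SoxB1 levels was 324 ± 7.4 CPM per kilobase in mondoa-mis and 425 ± 21.5 in mondoa-mo. The groups did not overlap, as was so for 47.8% of single genes tested. In this sum sox3 stood at 60.8 ± 1.98 and 141 ± 14.2 CPM per kilobase. The uncalled sox19b stood at 240 ± 7.08 and 248 ± 17.3, so that the sum does not describe all SoxB1 genes. Unlike the shares, the sum depends on the TMM normalization between libraries. The shares were described without a test, and their size depended on the gene lengths: from raw counts the mean share of sox3 was 13.9% in mondoa-mis and 25.9% in mondoa-mo.

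**Figure D4:**
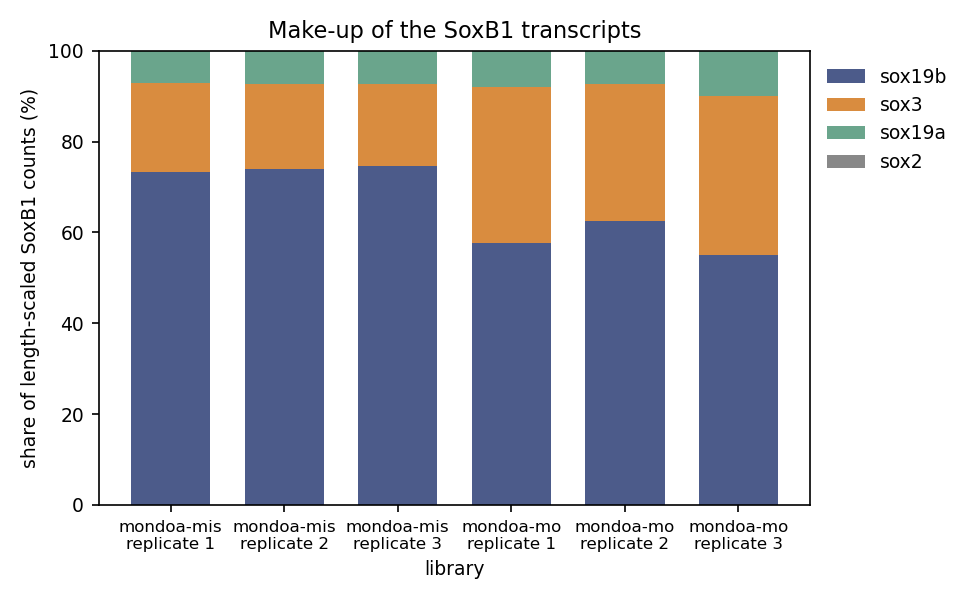
Share of each SoxB1 gene in the summed length-scaled SoxB1 counts (y axis, in %) for each of the 6 libraries. The blue part, sox19b, is above 73% in each mondoa-mis library and between 55.1% and 62.6% in the mondoa-mo libraries, while the orange part, sox3, is larger in mondoa-mo, and sox2 is too low to be seen.

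Ratios between pairs of these genes were also taken within each library and described without a test. The ratio of sox3 to sox19b, from length-scaled counts, was 0.254 ± 0.0135 in mondoa-mis and 0.571 ± 0.0807 in mondoa-mo (mean and SD of 3 libraries). The ratio of sox3 to sox19a was 2.57 ± 0.145 and 4.02 ± 0.41, and it was higher in each mondoa-mo than in any mondoa-mis library. The ratio of pou5f3 to nanog was 0.855, 0.922 and 0.832 in the mondoa-mis libraries and 0.656, 0.73 and 0.76 in the mondoa-mo libraries. None of these ratios overlapped between the groups, nor did that of sox19a to sox19b (0.0986 ± 0.00115 and 0.144 ± 0.0311). Those of sox19b to pou5f3 and of sox19b to nanog did overlap. How often ratios of other gene pairs do not overlap was not computed, and 47.8% of single genes tested had groups that did not overlap. For pou5f3 to nanog, pou5f3 was not called and the call of nanog was not stable.

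Genes that genetic studies in zebrafish place downstream of Pou5f3, SoxB1 or Nanog did not move in a single direction. Of 20 listed genes, 19 were matched and tested, of which 10 (52.6%) were higher, 3 (15.8%) lower and 6 not called, beside 16.9% and 15.4% of all genes. Their median log2 fold change was 0.50, against 0.0027 over all tested genes. The list was chosen with earlier results of these data known, so that these shares are a description and not a test of enrichment. Of the genes called higher, tbx16 had groups that overlapped in CPM. The homeobox genes vox and vent, whose products repress dorsal genes, are both placed downstream of Pou5f3 and went in opposite directions.

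The level of vox was 50.4, 49.3 and 51.5 CPM in the controls and 106, 102 and 120 CPM in the morphants, a log2 fold change of 1.12 (SE 0.0682, edgeR quasi-likelihood adjusted p = 3.1e-06). The level of vent was 15.7, 19 and 17.3 CPM in the controls against 4.77, 4.1 and 6.68 CPM in the morphants, a log2 fold change of -1.74 (SE 0.159, edgeR quasi-likelihood adjusted p = 3.5e-05). Neither gene had overlapping groups. The level of her3, a repressor of neural genes that depends on Pou5f3 and SoxB1 factors, fell from 1.8, 1.87 and 1.24 CPM to 0.384, 0.322 and 0.417 CPM, a log2 fold change of -2.11 (SE 0.278, edgeR quasi-likelihood adjusted p = 0.00032). These 3 calls held under every alternative in which the gene was tested. The counts of her3 were low, 44, 44 and 26 in mondoa-mis and 12, 7 and 10 in mondoa-mo. It passed the low-count filter only through mondoa-mis, where it was higher. With at least 10 counts required in every library, her3 was not tested.

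A copy of the protocadherin gene PCDH18 (ENSDARG00000052494), a cell adhesion gene reported downstream of SoxB1 factors, had 3, 0 and 6 counts in mondoa-mis and 26, 10 and 42 counts in mondoa-mo. It passed the low-count filter only through mondoa-mo, where it was higher. Its fitted log2 fold change of 2.91 (SE 0.716, edgeR quasi-likelihood adjusted p = 0.011) rested on these low counts, and the adjusted p was 0.05 without mondoa-mis replicate 1, where it did not pass. It was 2.32 without mondoa-mis replicate 2 or mondoa-mo replicate 3, and 3.92 without mondoa-mis replicate 3. The other PCDH18 copy (ENSDARG00000089805) had 12, 18 and 26 counts in mondoa-mis and 33, 30 and 46 counts in mondoa-mo. Its groups overlapped in CPM, and it was not called (log2 fold change 0.81, SE 0.347, edgeR quasi-likelihood adjusted p = 0.1). The homeobox gene mxtx2, a Nanog target in the yolk syncytial layer, stood at 6.58 ± 0.715 CPM in control and 7.46 ± 1.75 CPM in morphant libraries (SD, n = 3 for either; edgeR quasi-likelihood adjusted p = 0.47). The Nodal ligand gene ndr2, which passed only without mondoa-mo replicate 2 (log2 fold change 0.69), had 2.11 ± 0.292 and 2.93 ± 1.2 CPM (edgeR quasi-likelihood adjusted p = 0.22).

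**Figure D5:**
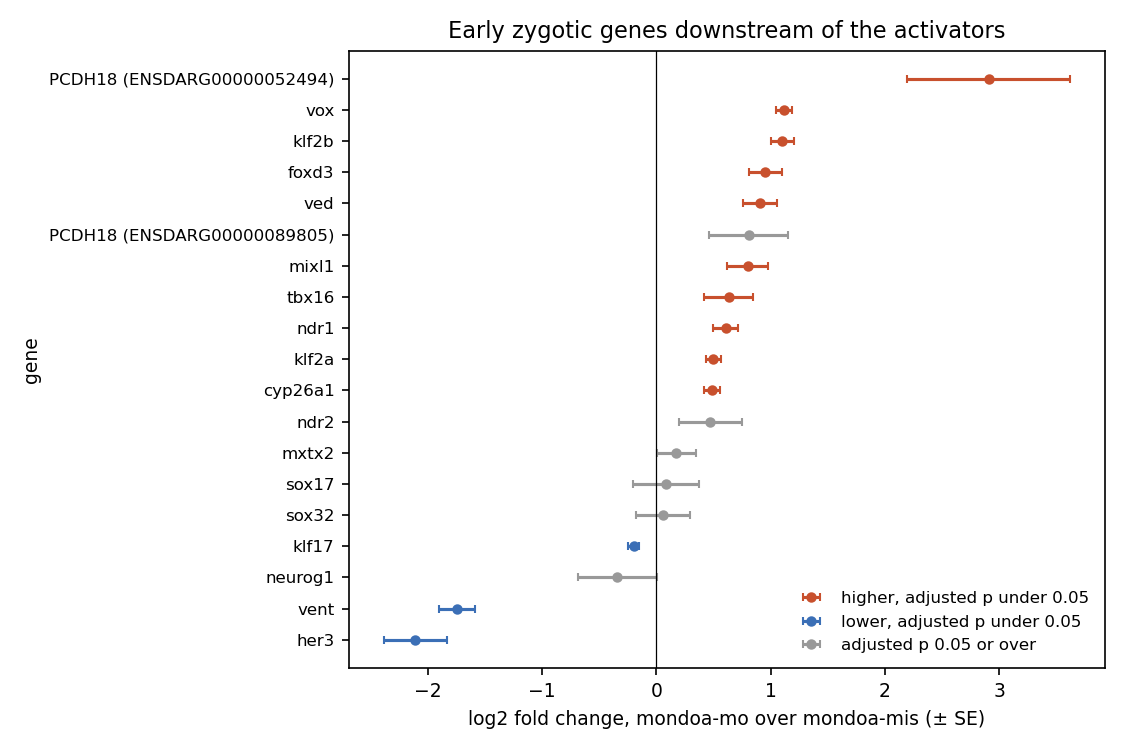
Log2 fold change (x axis, bars of 1 standard error) of the 19 tested genes placed downstream of the activators, in orange where higher, in blue where lower and in grey where the adjusted p-value was 0.05 or over. Most orange genes lie between 0.49 and 1.12, with 1 low-count PCDH18 copy at 2.91, and vent and her3 lie apart on the lower side at -1.74 and -2.11.

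The relatives of the activator genes were looked up by family. Among the other SoxB genes, 4 of 5 were matched and 2 tested. The SoxB2 gene sox21a, whose product is known as a repressor, rose from 1.54 ± 0.361 to 2.49 ± 0.391 CPM (log2 fold change 0.71, edgeR quasi-likelihood adjusted p = 0.032), a call lost in 4 of 13 alternatives, with the DESeq2 Wald test (adjusted p = 0.078) and without mondoa-mis replicates 1 or 2 or mondoa-mo replicate 1 (0.14, 0.085 and 0.086). A copy of SOX1 (ENSDARG00000069866) had 5 to 15 counts per library and an adjusted p of 0.65 in the same test.

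All 17 other Sox genes were matched, of which 10 were tested, 3 (30%) higher and 2 (20%) lower, beside 16.9% and 15.4% of all tested genes. The SoxC genes sox4b and sox11a had log2 fold changes of 0.92 and 0.78 (edgeR quasi-likelihood adjusted p = 0.001 for both). The level of sox11a rose from 96.1 ± 4.02 to 165 ± 36.7 CPM. Lower were sox13, at 55.8 ± 2.09 and 38.8 ± 4.99 CPM, and the low-count gene sox7, at 0.496 ± 0.065 and 0.106 ± 0.0287 CPM (log2 fold changes of -0.53 and -2.19). The gene sox7 passed the low-count filter only through mondoa-mis, where it was higher. A copy of SOX9 (ENSDARG00000043923) had a mean of 26.7 CPM in either group (adjusted p = 0.98), and a copy of SOX8 (ENSDARG00000037782) had 2.1 ± 0.262 and 2.39 ± 0.524 CPM (edgeR quasi-likelihood adjusted p = 0.52).

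Of 16 other POU genes, 15 were matched and 8 tested, with 3 (37.5%) higher, none lower and 5 not called, beside 16.9% and 15.4% of all tested genes. The log2 fold change was 1.40 for pou2f2b and 0.33 for pou2f2a (edgeR quasi-likelihood adjusted p = 0.014 and 0.0023). That of pou2f2b rested on low counts, 14, 18 and 14 in mondoa-mis and 77, 40 and 22 in mondoa-mo. The highest of these other POU genes in CPM was pou2f1b, a relative of mammalian Oct1, at 65 ± 2.57 and 65.2 ± 3.8 CPM. The gene pou6f1 had 28.8 ± 1.24 and 26.1 ± 5.36 CPM (adjusted p = 0.95 for pou2f1b and 0.45 for pou6f1). The call of pou2f2b was lost without mondoa-mis replicates 1 or 3 (adjusted p = 0.065 and 0.05). Without mondoa-mo replicate 1, pou6f1 was lower (log2 fold change -0.31, adjusted p = 0.029). The median log2 fold change of the tested POU genes was -0.0028.

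Among co-activators and other maternal factors, 10 of 11 genes were matched and tested. Of these, 2 (20%) were higher, 1 (10%) lower and 7 not called, beside 16.9% and 15.4% of all tested genes. The T-box gene eomesa had a log2 fold change of 0.14, a copy of the histone acetyltransferase gene CREBBP (ENSDARG00000104609) of 0.17, and foxh1, an effector of Nodal signalling, of -0.14. Their adjusted p-values of 0.039, 0.048 and 0.045 by the edgeR test lay close to the threshold, and each was lost in at least 6 of 13 alternatives, among them those without each mondoa-mis library in turn (adjusted p from 0.072 to 0.2). Leaving out mondoa-mo replicate 1 ended the calls of eomesa (0.066) and CREBBP (0.072), replicate 2 that of CREBBP (0.13) and replicate 3 that of foxh1 (0.06). The chromatin protein gene hmga1a, at 1860 ± 22.7 and 1880 ± 116 CPM, and the other copy of CREBBP (ENSDARG00000112452), at 638 ± 16.6 and 674 ± 32.7 CPM, did not pass (adjusted p = 0.84 and 0.22).

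Markers of the cells that a blastula holds were measured beside the activator genes, since whole embryos were used. Of 9 maternal transcripts, 4 (44.4%) were higher and 1 (11.1%) lower, beside 16.9% and 15.4% of all tested genes. The genes mos, dazl and ddx4 had log2 fold changes of 0.61, 0.48 and 0.32, and buc, which organizes the germ plasm, of -0.81. Neither btg4 nor cth1 passed (edgeR quasi-likelihood adjusted p = 0.81 and 0.08). With mondoa-mo replicate 2 left out, cth1 was lower (log2 fold change -0.23, adjusted p = 0.022), as it was with library size alone (-0.20, adjusted p = 0.042). The summed level of the 9 genes was 1900 to 1920 CPM over the control and 1700 to 1850 CPM over the morphant libraries. In this sum buc alone stood at 637 ± 3.9 and 363 ± 50.3 CPM, while the other called genes were higher in the morphants, so that the sum does not describe the list as a whole.

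Of 9 enveloping layer markers, 7 were tested, with 2 (28.6%) higher and 1 (14.3%) lower, beside 16.9% and 15.4% of all tested genes. Higher were cldne and ppl (log2 fold changes of 1.16 and 0.66), and lower was grhl3 (-1.87). The keratin genes krt8 and krt18a.1 were not called (edgeR quasi-likelihood adjusted p = 0.18 and 0.25). Without mondoa-mo replicate 3, krt8 was lower (-0.90, adjusted p = 0.00024), and without mondoa-mo replicate 2, krt18a.1 was higher (0.43, adjusted p = 0.007). The summed level of the 9 markers was 236 to 245 CPM in mondoa-mis against 185 to 229 CPM for mondoa-mo, and cyt1 was at 0 in all mondoa-mis libraries. In this sum grhl3 alone stood at 117 ± 3.07 and 31.8 ± 3.01 CPM, while cldne and ppl were higher in mondoa-mo, so that the sum does not describe the list as a whole. Of 4 yolk syncytial layer markers, 2 were tested, of which 1 (50%), mxtx1, was higher (1.10) and none lower, beside the same shares of all tested genes. The summed level of these 4 markers was 12.6 to 13.7 CPM in mondoa-mis against 16.7 to 29.5 CPM for mondoa-mo. In this sum mxtx1 alone stood at 6.24 ± 0.477 and 13.5 ± 3.78 CPM, with 17.7 CPM in mondoa-mo replicate 3. The sum thus does not describe the list as a whole.

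Of 7 markers of the mesendoderm at the margin, 4 (57.1%) were higher and 1 (14.3%) lower, beside 16.9% and 15.4% of all tested genes. The genes tbx16, mixl1, ndr1 and sox32 also stand in the list of genes downstream of the activators, so that these shares are not separate observations. Higher were tbxta, tbx16, mixl1 and ndr1 (0.69, 0.63, 0.80 and 0.61), and lower was gata5 (-1.97). The groups of tbx16 overlapped in CPM, with 44.8, 47.6 and 45.9 in mondoa-mis and 47.2 in mondoa-mo replicate 2. Neither gsc nor sox32 was called (edgeR quasi-likelihood adjusted p = 0.22 and 0.88). The call of tbx16 was lost in 7 of 13 alternatives, among them those without each mondoa-mis library in turn (adjusted p = 0.13, 0.11 and 0.12) or mondoa-mo replicate 3 (0.07). That of tbxta was lost without each mondoa-mis library in turn (0.071, 0.071 and 0.092), and that of gata5 without mondoa-mis replicates 1 or 3 or mondoa-mo replicate 2 (0.09, 0.059 and 0.065). The counts of gata5 in mondoa-mo were 2, 3 and 16, and its log2 fold change was -3.47 without mondoa-mo replicate 3 and -1.40 without mondoa-mo replicate 1. This gene passed the low-count filter only through mondoa-mis, where it was higher. The summed level of these markers was 83.7 to 86.9 CPM in mondoa-mis against 98.1 to 185 CPM for mondoa-mo. In this sum tbx16 alone stood at 46.1 ± 1.39 and 71.4 ± 28.9 CPM, so that the sum does not describe the list as a whole. Mondoa-mo replicate 3, the library that was also highest for sox19a, was the highest for tbx16 (63.8, 47.2 and 103 CPM in mondoa-mo replicates 1, 2 and 3), mixl1 (23.7, 24.4 and 40.2 CPM) and gsc (5.06, 4.97 and 11.3 CPM). Without it the log2 fold change was 0.28 for tbx16, 0.51 for mixl1 and 0.00039 for gsc. Among the mondoa-mo libraries, replicate 3 was also the highest for sox3, cldne, krt8 and mxtx1, and not for sox19b, ppl or sox32. No marker of these lists was at 0 in all 6 libraries. The part of these shifts in the levels of the activator genes was not tested.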

How the data were processed

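Per the labels and the study's methods, TRIzol RNA of the embryos went into TruSeq mRNA libraries, read for 50 nucleotides at either end over 3 lanes. The authors aligned the pairs to GRCz11 by STAR 2.3.8 and deposited the raw counts of unique pairs for each gene of Ensembl 96. Use of strand was not stated. Pairs from sequence shared between SoxB1 paralogs are not counted as unique, and how many were lost was not measured. The deposited table also holds a length per gene, another column than the counts.

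These counts were tested by edgeR 4.0.16 under R 4.3.3 (filterByExpr, TMM, quasi-likelihood test, no covariates, Benjamini-Hochberg over all 15511 genes tested, threshold 0.05). The code was checked on simulated data with the same spread in both groups. That check does not cover the unequal spread of the groups seen here. Standard errors are the log2 fold change over the square root of F. Alternatives were DESeq2 1.42.0 size factors and Wald test, library size alone, upper quartile, 2 other filters, a replicate block and leaving out each library. Gene names came from a table that matched 28986 identifiers, with some letters of paralogs from the study's supplement. The genes sox14, pou2f1a, hesx1 and smarca4a were not matched. The called genes her3, sox7, gata5 and PCDH18 (ENSDARG00000052494) passed the filter only through the group where they were higher. Their calls and their part in the list shares are limited by this. From each list, up to 4 called genes with the largest change and up to 2 uncalled genes with the highest CPM were named. Beyond this rule, ndr1 and the uncalled PCDH18 copy are given. The values of 1 gene that this rule chose are not reported here. The members and lists were chosen with earlier results of these data known, so that the shares of each list beside all genes are descriptions and not tests. Some genes, such as tbx16, mixl1, ndr1, mxtx2, sox17 and sox32, stand in more than 1 list. Same-numbered libraries deviated together only weakly (correlations 0.0382, 0.0261 and 0.0473, under 0.1), so they were not treated as paired.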

Additional observations from a re-analysis of the deposited data

How the results depend on the processing

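Under all 13 alternatives sox3 and sox19a kept their direction and call. The log2 fold change of nanog was 0.12 with library size alone and 0.155 with upper quartile normalization, where it did not pass, and ranged from 0.131 to 0.206 as each library was left out. That of pou5f3 ranged from -0.188 to -0.0895 and that of sox19b from -0.0128 to 0.0972 in the same way. As each library was left out, the number of genes changed ranged from 3119 to 5832, higher from 1632 to 3039 and lower from 1487 to 2793. With the replicate block, 5281 genes changed, no call of an activator gene changed, and of the other genes that the rule chose krt8 alone gained a call (-0.525, adjusted p = 0.028). All 6 libraries correlated best with their own number, a hint from the data and not from the design. Without length scaling the share of sox3 was 13.9% in mondoa-mis and 25.9% in mondoa-mo, that of sox19b 79.4% and 66.1%, and that of sox19a 6.64% in mondoa-mis. The cause of these shifts other than the scaling itself was not tested.

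Of the 539 values of the 42 other genes that the rule chose, 474 kept direction and call, 44 lost the call, 7 gained it and 14 changed sign, all of them of uncalled genes. With 1 library left out the log2 fold change of SOX9 (ENSDARG00000043923) ranged from -0.207 to 0.0835 (0.027 without mondoa-mis replicate 1, 0.077 without mondoa-mo replicate 1), of pou2f1b from -0.0434 to 0.0396 (-0.0104 and -0.0124 without mondoa-mis replicates 1 and 2), of pou6f1 from -0.306 to 0.000133, of mxtx2 from -0.0231 to 0.332, of hmga1a from -0.0267 to 0.0517, of btg4 from -0.13 to 0.0895 and of sox32 from -0.135 to 0.21. With library size alone it was -0.0374 for pou2f1b and -0.0272 for hmga1a, and with upper quartile -0.0031 for pou2f1b. Counts of 3 to 15 limit sox2.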

Other observations

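The genes whose pattern over the 6 libraries was most like that of an activator gene were listed by Pearson's correlation of log2 CPM, as a description, since the points share libraries and the difference between the groups. For sox3, the 3 nearest genes with a name were si:ch211-143l19.3, the lncRNA gene that overlaps it, then TOP1, a topoisomerase gene (log2 fold change 0.48), and ARPC2, a subunit gene of the actin-nucleating Arp2/3 complex (0.29), with correlations of at least 0.999. In all, 135 named genes reached 0.99 with sox3. For sox19a they were htra2-1, AKR1A1 and CWC22, with 0.998, 0.996 and 0.995, and 18 genes reached 0.99. For nanog they were JUP, WDR18 and PPM1G, with 0.996, 0.995 and 0.993, and 6 genes reached 0.99. Of these 3, WDR18 was called (log2 fold change 0.19, edgeR quasi-likelihood adjusted p = 0.027). The genes JUP and PPM1G were not (log2 fold changes 0.1 and 0.11, edgeR quasi-likelihood adjusted p = 0.12 and 0.084).

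The counts of genes that overlap an activator gene in the RefSeq annotation differed in how they compared with its count. These overlaps are of whole gene spans in an assembly other than the one used for counting. Whether the genes share exons in the annotation that was counted was not checked. In the RefSeq table of assembly GRCz12tu, nanog overlaps ipo4, a nuclear import receptor gene, pou5f3 overlaps fut7, and sox19a overlaps the lncRNA gene LOC141385809, which was not matched to an identifier of the count table and was not analysed here. The count of ipo4 was 13.2% to 14% of that of nanog in every library, with a log2 fold change of 0.13 (SE 0.0503, edgeR quasi-likelihood adjusted p = 0.072). Whether read pairs were counted for both was not tested. The gene fut7 was at 0 in all 6 libraries, so that no pair of pou5f3 was counted for it.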
